A study of Mus musculus with 24 samples.

Results

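The circadian clock genes described here are 10 genes of the loop and its output, listed by symbol: Arntl, Clock, Per1, Per2, Per3, Cry1, Cry2, Nr1d1, Nr1d2 and Dbp. They are 10 of 53465 genes listed in the count tables, and 9 of them carried reads and entered the strain comparison, which tested 18425 genes. RNA was sequenced from the brains of 12 mice of wild-derived inbred strains, 6 of CAST/EiJ (CAST) and 6 of WSB/EiJ (WSB), in a study of loci that modulate ischemic stroke volume. Animals are named here by strain and number, CAST_142, CAST_170, CAST_200, CAST_201, CAST_202 and CAST_203, and WSB_100, WSB_120, WSB_135, WSB_138, WSB_147 and WSB_169. The labels give tissue, strain, animal, sequencing lane and library index. They give no sex, age, treatment, dissection, batch, hour of collection or light schedule, so the phase of the clock in each animal is not known. All CAST libraries precede all WSB libraries in the index order, so an effect of this order and an effect of strain cannot be told apart.

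The molecular clock is a feedback loop of transcription. ARNTL (also called BMAL1) and CLOCK form a heterodimer that binds E-box sequences and activates Per, Cry, Nr1d and Dbp genes; PER and CRY proteins accumulate and repress that heterodimer, and the REV-ERB receptors made by Nr1d1 and Nr1d2 repress Arntl through ROR elements. In the mouse the transcripts of many of these genes cycle daily in most tissues, the brain included, and Arntl transcript peaks at about the opposite phase to Dbp and Nr1d1. A single collection per animal therefore records a level and no rhythm.

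Each animal had 32982569 to 46513232 reads assigned to genes, with the 2 lanes of its library summed. Levels are given as CPM, the reads of a gene relative to all reads in genes of that animal, after TMM scaling, a correction for library composition. Among the 9 members with reads, Cry1 had the fewest, 700 to 1587 per animal, and Per1 the most in any animal, 8220. The largest difference between the lanes of an animal was 0.27 on the log2 scale for Cry1 and 0.17 for Dbp, against ranges among WSB animals of 0.34 and 1.26. Markers of brain regions differed among animals. Library CAST_142 had a summed level of cerebellar granule neuron markers of 843 CPM, against 27.7 to 53.8 CPM in the other CAST animals and 25.1 to 37.4 CPM in WSB, and its striatal markers summed to 285 CPM, against 530 to 1110 CPM in the other CAST animals and 658 to 1059 CPM in WSB. The 7 markers of the suprachiasmatic nucleus, the master clock of the hypothalamus, summed to 33.6 to 54.8 CPM in CAST and 35.9 to 69.5 CPM in WSB. The highest CAST sum was that of CAST_142, where Lhx1 stood at 32.4 CPM, against 0.405 to 4.54 CPM in the other CAST animals. The Vip and Avp levels of CAST_142 were the lowest in CAST. Vip spanned 19.6 to 31.1 CPM in CAST and 22.7 to 40.6 CPM in WSB; Avp spanned 0.181 to 21.4 CPM in CAST and 0.202 to 34.5 CPM in WSB, and Six6 stayed under 1 CPM in every animal. In such bulk tissue, fewer cells of a type and less RNA per cell cannot be told apart.

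Promoter windows of 4 members are shown: those of Arntl, Per1 and Cry1 that hold a motif, and that of Dbp, the member with the widest spread in WSB. The windows run from 250 bases before to 50 bases after a RefSeq start, 5′ to 3′ on the gene's strand, in the reference build GRCm38.p6, which is neither a CAST nor a WSB genome. Capitals mark a ROR element core in Arntl (chr7:113207261-113207560, plus strand) and an E-box in Per1 (chr11:69098699-69098998, plus strand) and in Cry1 (chr10:85185005-85185304, minus strand). The window of Dbp (chr7:45704997-45705296, plus strand) held none of the motifs searched.
Arntl: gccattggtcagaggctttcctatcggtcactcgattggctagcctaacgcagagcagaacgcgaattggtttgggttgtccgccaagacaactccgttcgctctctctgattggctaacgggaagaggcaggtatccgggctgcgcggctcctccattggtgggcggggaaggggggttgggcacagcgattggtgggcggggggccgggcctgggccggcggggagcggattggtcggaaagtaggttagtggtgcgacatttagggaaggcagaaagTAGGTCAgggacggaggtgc
Per1: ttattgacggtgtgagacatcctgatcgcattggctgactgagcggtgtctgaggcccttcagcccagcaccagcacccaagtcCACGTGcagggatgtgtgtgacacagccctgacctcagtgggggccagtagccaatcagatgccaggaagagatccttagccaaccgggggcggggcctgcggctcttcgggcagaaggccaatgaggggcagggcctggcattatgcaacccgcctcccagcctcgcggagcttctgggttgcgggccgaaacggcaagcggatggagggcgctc
Cry1: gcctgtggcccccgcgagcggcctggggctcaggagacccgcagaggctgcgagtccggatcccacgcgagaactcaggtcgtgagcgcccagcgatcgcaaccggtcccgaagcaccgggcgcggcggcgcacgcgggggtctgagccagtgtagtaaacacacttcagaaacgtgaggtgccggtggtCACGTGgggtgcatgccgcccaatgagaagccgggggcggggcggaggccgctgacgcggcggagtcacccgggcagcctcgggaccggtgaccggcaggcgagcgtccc
Dbp: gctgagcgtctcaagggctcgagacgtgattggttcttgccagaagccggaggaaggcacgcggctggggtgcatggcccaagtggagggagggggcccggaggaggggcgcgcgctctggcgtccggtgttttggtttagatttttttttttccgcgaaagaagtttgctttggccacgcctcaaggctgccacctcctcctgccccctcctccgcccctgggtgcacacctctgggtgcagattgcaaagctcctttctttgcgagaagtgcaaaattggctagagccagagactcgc
Windows were found for 9 of the 10 members (Per2 had none in the table), and 4 members had any match. Per1 and Arntl each have a further window without one, and the windows of Clock, Cry2, Nr1d1 and Nr1d2 held none. The E-box CACGTG lay 166 bases before the start in Per1 and 60 bases before it in Cry1. The ROR element core TAGGTCA began at position 281 of the 300 bases in 1 of the Arntl windows. Per3 held the D-box TTATGTAA, 205 and 158 bases before its start. Searched on both strands, CACGTG occurred in 7.15% of all 32851 promoter windows, TTATGTAA or TTACGTAA in 1.06%, and TAGGTCA or TGGGTCA in 6.45%. A match is a description of the letters and no evidence of binding, and the absence of one says nothing about the factors that act on a gene.

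Between the strains, 1 of the 9 counted members passed the test. Cry2 was lower in CAST brains, by a modest margin, and Arntl, Clock, Per1, Per2, Cry1, Nr1d1, Nr1d2 and Dbp did not pass. Over all genes tested, edgeR's quasi-likelihood test called 42.7% different between the strains at a Benjamini-Hochberg adjusted p under 0.05, with 21.5% higher and 21.2% lower in CAST. The members' counts by the same test were 0 higher and 1 lower in CAST. At an unadjusted p under 0.05 the counts were 1 higher and 1 lower, and DESeq2 also called 0 higher and 1 lower. The median of the members' log2 fold changes was -0.016 and the median of their absolute values 0.11, against 0.0046 and 0.22 over all genes tested.

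**Figure D1:**
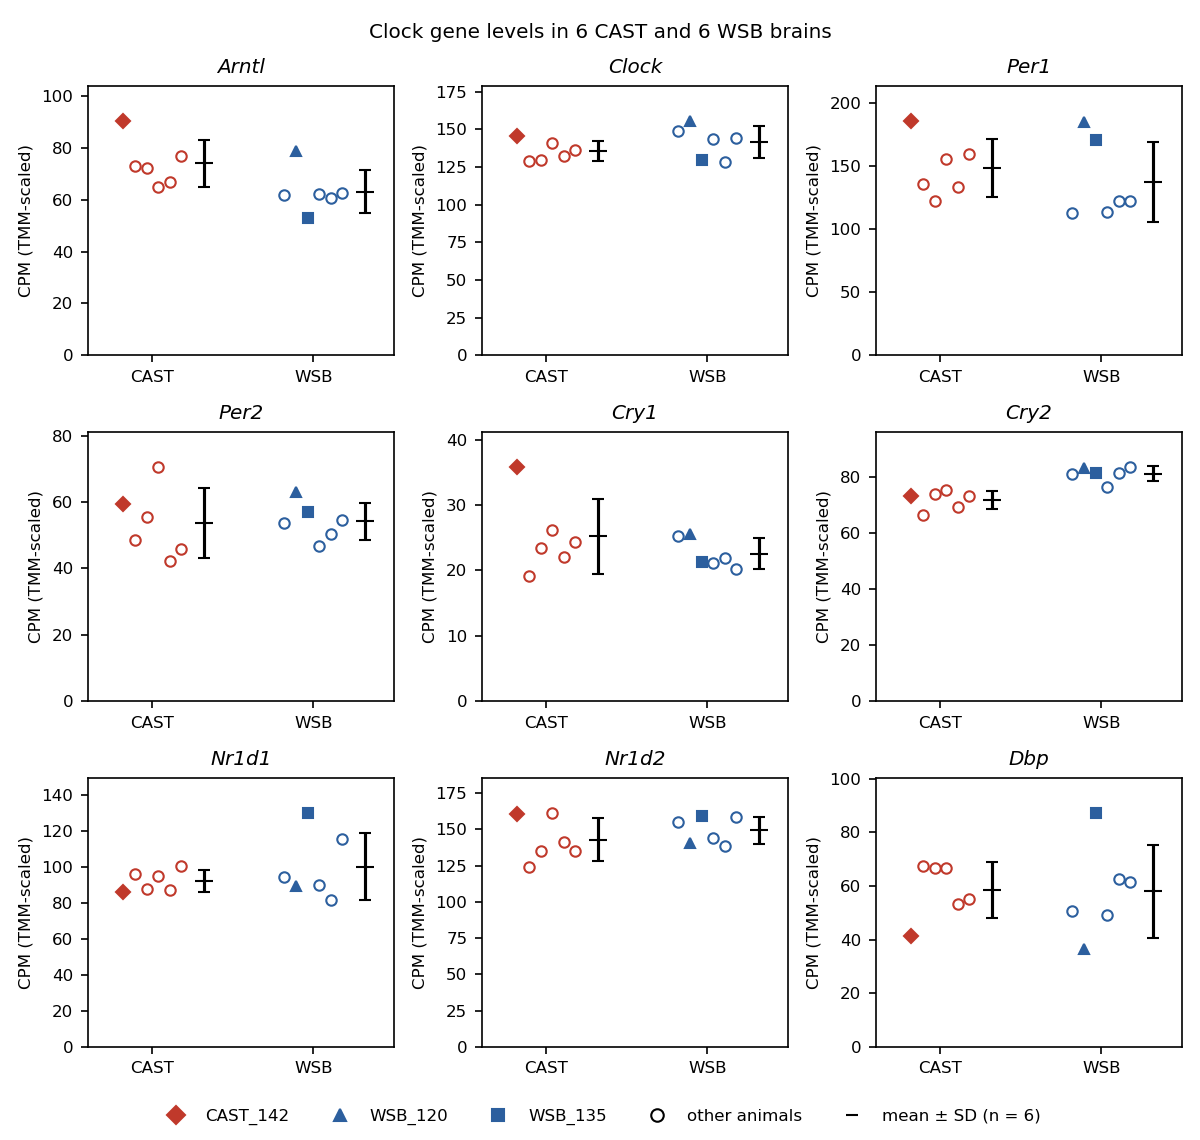
Level of each counted clock gene (vertical axes, CPM after TMM scaling, from 0) in 6 CAST and 6 WSB brains, with 1 point per animal and the mean ± SD at the right of each group. Filled symbols mark CAST_142, WSB_120 and WSB_135; the strains separate fully for Cry2, at 66.4 to 75.0 CPM in CAST against 76.3 to 83.4 CPM in WSB.

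The activators were Arntl and Clock, whose products form the DNA-binding heterodimer. Arntl (chr7:113207465-113314126, plus strand) had a lowest, median and highest level of 64.7, 72.6 and 90.3 CPM in CAST, against 53.1, 62.0 and 78.6 CPM in WSB. The ranges overlapped, and the highest animals were CAST_142 and WSB_120. The means were 74.0 ± 9.15 CPM in CAST brains and 63.2 ± 8.36 CPM in WSB brains (SD, n = 6 each), a log2 fold change of 0.23 (SE 0.094, 95% interval 0.025 to 0.43) with an edgeR adjusted p of 0.0672. Arntl thus missed the threshold in the full set of animals. It passed without CAST_201 (adjusted p 0.0467, log2 0.26) or without WSB_120 (adjusted p 0.0105, log2 0.30), and over all alternative settings its adjusted p lay between 0.0105 and 0.184.

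Clock (chr5:76209868-76304792, minus strand) varied little. It had a lowest, median and highest level of 129, 134.5 and 146 CPM in CAST, against 128, 144 and 156 CPM in WSB, and the CAST range lay inside the WSB range. Its means were 135.7 ± 6.76 CPM in CAST brains and 141.8 ± 10.8 CPM in WSB brains (SD, n = 6 each), and the log2 fold change was -0.063 (95% interval -0.18 to 0.053; edgeR adjusted p 0.375).

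Per1 and Per2 encode repressors, and in the mouse both also respond to light and other acute stimuli. Per1 (chr11:69095217-69109960, plus strand) had 122, 146 and 186 CPM as lowest, median and highest level in CAST, against 113, 122 and 185 CPM in WSB. Within WSB the animals fell apart, with WSB_120 at 185 and WSB_135 at 171 CPM and the other 4 at 113 to 122 CPM. CAST_142, at 186 CPM, was the highest in CAST. The log2 fold change was 0.11 (SE 0.14, 95% interval -0.20 to 0.42; edgeR adjusted p 0.568). Per2 (chr1:91415982-91459324, minus strand) had 42.1, 52.1 and 70.7 CPM in CAST, against 46.9, 54.2 and 63.1 CPM in WSB, so the CAST range enclosed the WSB range. The highest animals for Per2 were CAST_201 and WSB_120, and the log2 fold change was -0.016 (SE 0.11, 95% interval -0.26 to 0.23; edgeR adjusted p 0.924).

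Per3, the remaining period gene, is listed at 0 reads in all 12 animals. In GENCODE M21 the whole of Per3 (chr4:151003652-151044665, minus strand) lies inside Camta1 on the same strand, which averaged 455 ± 50.3 CPM in CAST brains and 462 ± 28.5 CPM in WSB brains (SD, n = 6 each). Nothing is said here of the expression of Per3.

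The cryptochromes are the partners of PER in repression; Cry2 passed the test and Cry1 did not, and the difference between them was not tested. Cry2 (chr2:92403646-92434043, minus strand) had a lowest, median and highest level of 66.4, 73.0 and 75.0 CPM in CAST, against 76.3, 81.3 and 83.4 CPM in WSB. Every CAST animal was below every WSB animal, a separation that 27.1% of all genes tested also showed in 1 direction or the other. The means were 71.8 ± 3.26 CPM in CAST brains and 81.1 ± 2.57 CPM in WSB brains (SD, n = 6 each). Cry2 fell to 0.885 of the WSB level in CAST (log2 fold change -0.18, SE 0.038, 95% interval -0.26 to -0.093), with an edgeR adjusted p of 0.00211. The call held in every alternative setting and without any single animal, with adjusted p-values of 1.10e-04 to 0.00671. Only 39.4% of the exon bases of Cry2 lie outside the antisense gene D930015M05Rik, which is itself listed at 0. Reads of the pair in the overlap cannot be told apart and may not have been counted. The call may then rest on the part of the transcript outside the overlap. The part in this difference of read alignment to a reference genome unlike either strain was not tested.

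Cry1 (chr10:85131700-85185064, minus strand) had 19.2, 23.9 and 35.9 CPM in CAST, against 20.2, 21.6 and 25.6 CPM in WSB. The value of 35.9 CPM belongs to CAST_142, and the other 5 CAST animals lay at 19.2 to 26.3 CPM, over the same range as WSB. The log2 fold change was 0.16 (SE 0.13, 95% interval -0.12 to 0.43; edgeR adjusted p 0.345), and it was 0.027 without CAST_142.

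Nr1d1 and Nr1d2 encode REV-ERB alpha and beta, the nuclear receptors that repress Arntl. Nr1d1 (chr11:98767932-98775333, minus strand) had 85.9, 91.3 and 101 CPM in CAST, against 81.4, 92.2 and 130 CPM in WSB. The medians were nearly equal, and the upper end in WSB came from WSB_135 at 130 CPM and WSB_169 at 116 CPM. The log2 fold change was -0.12 (SE 0.10, 95% interval -0.34 to 0.10; edgeR adjusted p 0.371) and was -0.034 without WSB_135. Nr1d2 (chr14:18204054-18239127, minus strand) had 124, 138.4 and 162 CPM in CAST, against 138.5, 149.7 and 159 CPM in WSB. The ranges overlapped, and its log2 fold change was -0.062 (SE 0.068, 95% interval -0.21 to 0.085; edgeR adjusted p 0.494).

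Dbp encodes a PAR bZIP transcription factor, an output arm of the clock that binds D-box elements. Dbp (chr7:45705088-45710203, plus strand) had 41.4 CPM in CAST_142, 53.2 in CAST_202, 55.3 in CAST_203, 66.6 in CAST_200, 66.9 in CAST_201 and 67.4 in CAST_170. In WSB it had 36.6 CPM in WSB_120, 49.1 in WSB_138, 50.6 in WSB_100, 61.6 in WSB_169, 62.6 in WSB_147 and 87.3 in WSB_135. The WSB values enclosed the CAST values and reached farther at both ends. The means, 58.5 ± 10.5 CPM in CAST brains and 58.0 ± 17.3 CPM in WSB brains (SD, n = 6 each), gave a log2 fold change of 0.011 with a wide 95% interval of -0.38 to 0.40 (edgeR adjusted p 0.966). Of the body of Dbp, 85.6% lies outside Sphk2 on the opposite strand, and Sphk2 had a log2 fold change of 0.036 (edgeR adjusted p 0.685).

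**Figure D2:**
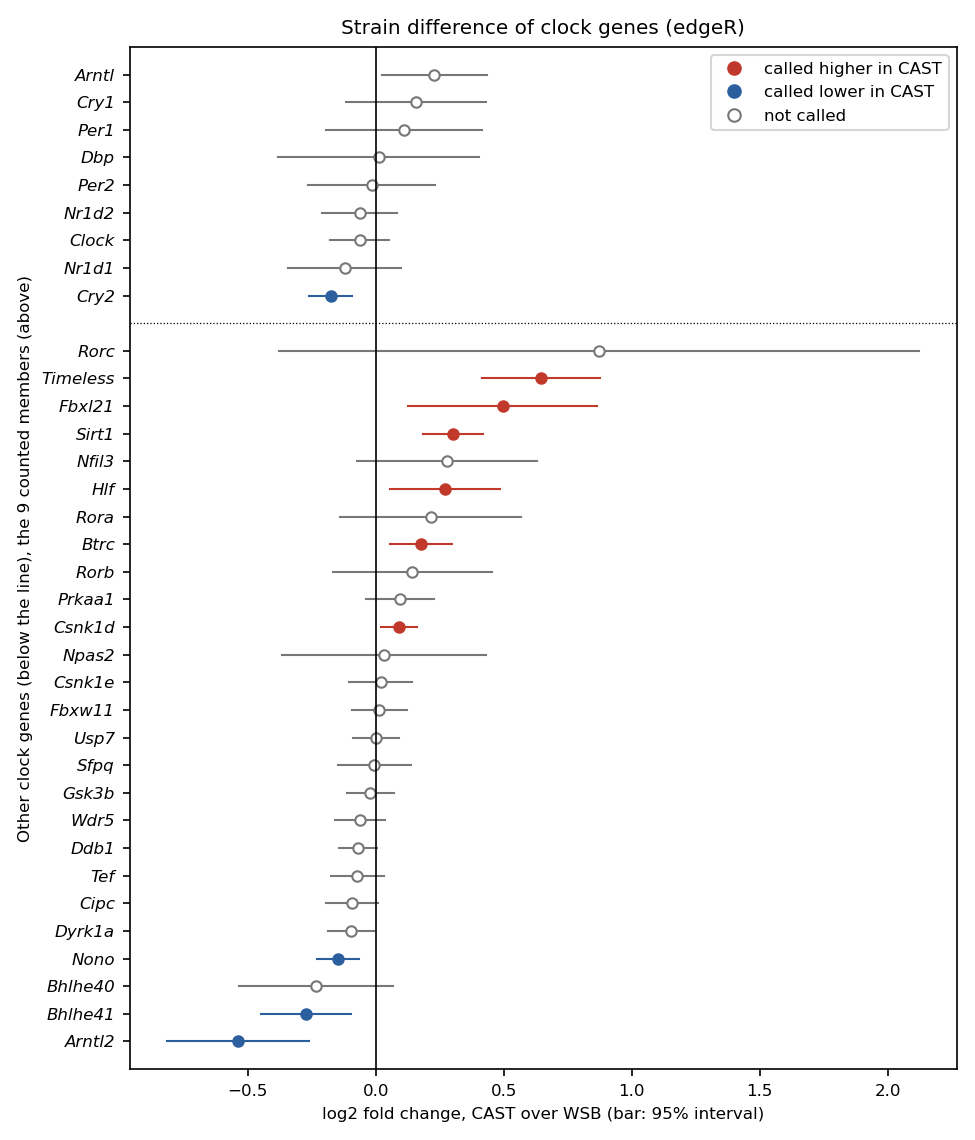
Log2 fold change, CAST over WSB (horizontal axis; bars are 95% intervals), of the 9 counted members above the dotted line and 26 other clock genes below it. Filled points passed edgeR's test at adjusted p under 0.05; among the members this is Cry2 at -0.18, while Arntl at 0.23 missed the threshold.

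Per kilobase of merged exon, the order of the mean levels over the 12 animals was Nr1d1 (31.2 CPM per kb), Nr1d2 (27.02), Per1 (25.4), Dbp (19.5), Cry2 (12.1), Clock (10.1), Per2 (9.22), Arntl (9.12) and Cry1 (7.15). Within the same animals, 2 steps of this order held in all 12, Cry2 above Clock and Arntl above Cry1; Cry2 and Clock did not overlap in WSB, at 12.1 to 13.2 and 9.35 to 11.3 CPM per kb. Each of the other neighbouring pairs had the reverse order in at least 1 animal. Among those, Dbp and Cry2 did not overlap in CAST, at 13.8 to 22.5 and 10.5 to 11.9 CPM per kb, but overlapped in WSB. The ends of the order were apart, with Nr1d1 at 26.5 to 42.2 and Cry1 at 5.75 to 10.7 CPM per kb. Per kilobase of gene body, Dbp took place 2 and Nr1d2 place 4. Both scales divide by the full length of a gene, overlaps with other genes included. Only 39.4% of the exon bases of Cry2 lie outside its antisense gene, and reads in the overlap may not have been counted. The level of Cry2 per kilobase may thus be too low on both scales. Its place relative to the members listed above it, Dbp included, is therefore not settled.

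Spread among animals of a strain was unequal between the members. Dbp had the largest SD of log2 CPM in WSB, 0.42, with a highest animal 2.39 times the lowest, and an SD of 0.28 in CAST, with a ratio of 1.63. Cry2 had the smallest in both strains, 0.067 in CAST and 0.047 in WSB. Over all genes tested the median SD was 0.17 in CAST and 0.15 in WSB, which puts Dbp at percentile 69.8 in CAST and 88.7 in WSB, and Cry2 at percentile 12.2 in CAST and 4.69 in WSB. Dbp is thus among the more variable genes of WSB without being at the extreme, and Cry2 among the steadiest.

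The rank of several other members depended on the strain, and in CAST the SD of Cry1 exceeded that of Dbp. Per1 had an SD of 0.22 in CAST and 0.32 in WSB (percentiles 60.0 and 79.2), and Nr1d1 0.093 in CAST and 0.26 in WSB (percentiles 23.7 and 71.5). Cry1 had 0.30 in CAST and 0.14 in WSB, and Per2 had 0.27 in CAST and 0.15 in WSB. Clock had 0.071 in CAST and 0.11 in WSB, below the median of all genes in both strains. Several of these values rest on 1 animal. The SD of Cry2 was 0.044 in CAST without CAST_170 and 0.021 in WSB without WSB_138. Without CAST_142 Clock had the smallest CAST SD, 0.056, and Cry2 had 0.074. Without CAST_142 the CAST SD of Dbp was also lower, 0.17, and that of Arntl was 0.10 and that of Cry1 0.17; without WSB_120 the WSB SD of Arntl was 0.10.

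The difference in spread between the strains was tested on the mean absolute deviation from the strain median, two-sided, by permutation over all 924 splits of the animals. The medians were those of the true strains and were not taken again for each split, so the p-values are approximate. The test called 0 members at a Benjamini-Hochberg adjusted p under 0.05, and 0 members had an unadjusted p under 0.05. The smallest unadjusted permutation p among the members were 0.130 for Per2, more spread in CAST, and 0.266 for Dbp and 0.275 for Nr1d1, both more spread in WSB. Over all genes, 4.43% had an unadjusted p under 0.05 and 0 passed the adjustment. Based on the log2 ratio of variances instead, 1 member, Nr1d1, had an unadjusted p under 0.05 and 0 passed the adjustment. The smallest unadjusted p that 924 splits allow is 0.00217, and the smallest adjusted p over all genes was 0.275. The test had little power. In simulated data, 200 of 18425 genes were given 4 times the SD in CAST. Of these, 100 had an unadjusted p under 0.05 by the same test, and 0 genes passed the adjustment. The 0 calls in the real data therefore do not show that the strains have equal spread.

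**Figure D3:**
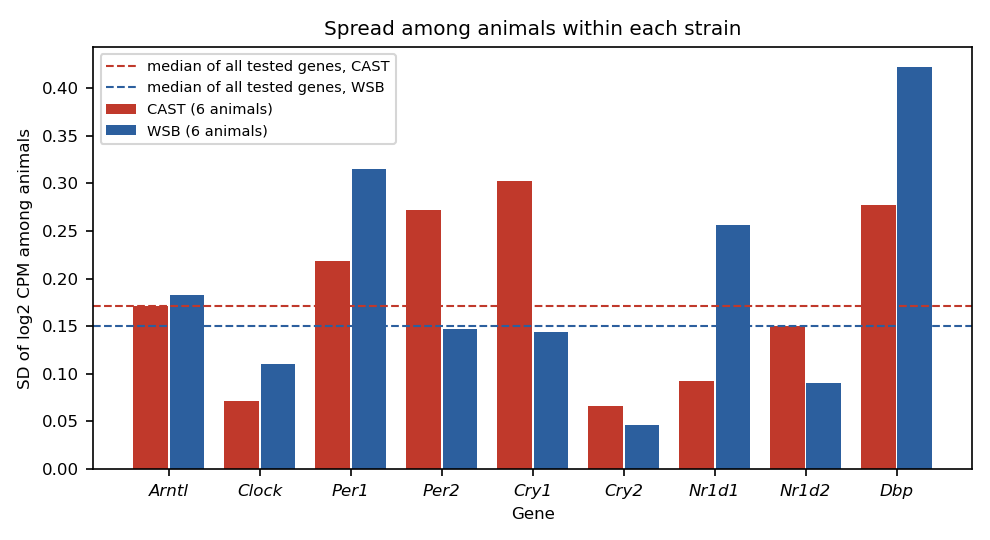
SD of log2 CPM among the 6 animals of each strain (vertical axis, log2 units, from 0) for each counted clock gene, with CAST left of WSB; dashed lines are the medians over all genes tested, 0.17 in CAST and 0.15 in WSB. Dbp in WSB is the tallest bar at 0.42 and Cry2 in WSB the shortest at 0.047.

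The lowest Dbp animal of each strain was the highest for both activators. CAST_142 was the highest CAST animal for Arntl, Clock, Per1 and Cry1 and the lowest for Nr1d1 and Dbp. WSB_120 was the highest WSB animal for Arntl, Clock, Per1, Per2 and Cry1 and the lowest for Dbp. CAST_170, the highest CAST animal for Dbp, was the lowest for Clock but near the CAST mean for Arntl. WSB_135 was the highest for Nr1d1, Nr1d2 and Dbp and the lowest for Arntl; its Clock, at 129.6 CPM, was above that of WSB_147, and its Per1 was also high, 0.34 above the WSB mean on the log2 scale.

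Relative to the mean of their strain on the log2 scale, Dbp stood at -0.48 in CAST_142, -0.61 in WSB_120 and 0.64 in WSB_135. Arntl stood at 0.30, 0.33 and -0.24 in the same animals. The log2 ratio of Dbp to Arntl was accordingly lowest in CAST_142, at -1.13, and in WSB_120, at -1.10, and highest in WSB_135, at 0.72. The other 9 animals lay between -0.48 and 0.05. The ratio averaged -0.35 ± 0.42 in CAST and -0.17 ± 0.60 in WSB (SD, n = 6 for both strains), so the distance between the strain means was smaller than the SD of either strain. The ratio of Nr1d1 to Arntl averaged 0.32 ± 0.21 in CAST brains and 0.65 ± 0.39 in WSB brains, and that of Per2 to Arntl -0.47 ± 0.32 in CAST brains and -0.21 ± 0.17 in WSB brains. For these pairs the distance exceeded the SD of 1 strain and was below that of the other; it was not tested.

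CAST_142 was also the library with the high cerebellar and low striatal marker sums given above, where 3 of the 5 cerebellar markers carried reads and Cbln1 and Neurod1 are listed at 0. Like Per3, Cbln1 and Neurod1 overlap other genes along their whole length, so nothing is said of their expression. Of the cerebellar markers, Gabra6 and Cbln3 stood at 333 and 344 CPM in CAST_142. In WSB_120 they stood at 6.58 and 9.26 CPM, against values under 1 CPM in the other 5 WSB animals. They were higher than that in CAST_170, at 11.5 and 11.9 CPM, which had the highest Dbp and the lowest Clock and Cry1 in CAST. The third marker with reads, Zic1, stood at 167 CPM in CAST_142 and 30.4 CPM in CAST_170. In WSB_120 Zic1 stood at 21.5 CPM, the lowest WSB value. WSB_120 had the lowest striatal sum in WSB, 658 CPM. Oligodendrocyte markers summed to 3410 CPM in CAST_142, against 2578 to 3168 CPM in the other CAST animals, and were highest in WSB in WSB_120, at 4455 CPM. Astrocyte markers summed to 1232 CPM in CAST_142, against 856 to 969 CPM in the other CAST animals. In WSB the highest astrocyte sum, 882 CPM, was in WSB_135. Avp was lowest in CAST in CAST_142, at 0.181 CPM, and lowest in WSB in WSB_120, at 0.202 CPM, with WSB_100 close at 0.230 CPM. It was highest in WSB in WSB_135, at 34.5 CPM, and highest in CAST in CAST_202, at 21.4 CPM. CAST_201, with 66.9 CPM of Dbp, had 0.702 CPM of Avp. The part of tissue composition in the clock gene levels was not tested. WSB_120 was the highest WSB animal for the activity-induced genes Egr1 (480 CPM), Arc (504 CPM) and Fos (47.3 CPM) and for the glucocorticoid targets Sgk1 (185 CPM) and Tsc22d3 (89.6 CPM). Other genes of these lists peaked elsewhere in WSB: Npas4 in WSB_135, Sik1 in WSB_147, and Fkbp5 and Cdkn1a in WSB_100. In CAST the highest animal was CAST_201 for Egr1, Arc and Fos, and CAST_142 for Sgk1 and Tsc22d3. The part of these genes in the clock gene levels was not tested either.

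**Figure D4:**
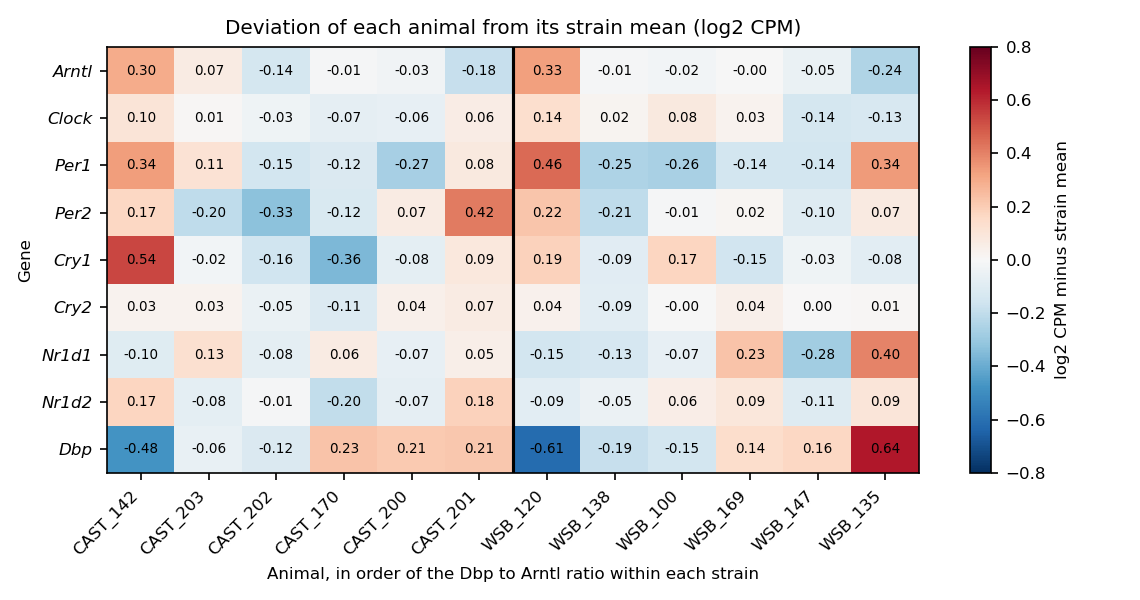
Deviation of each animal from its strain mean (log2 CPM; colour scale and printed values) for the 9 counted clock genes, with animals ordered within each strain by the ratio of Dbp to Arntl and CAST at the left. CAST_142 and WSB_120 combine Arntl values of 0.30 and 0.33 with Dbp values of -0.48 and -0.61, and WSB_135 combines -0.24 with 0.64.

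Correlations between members were computed within each strain, because strain separates the animals. With Per3 at 0 there were 36 pairs, or 72 relations, and the smallest two-sided exact permutation p that 6 animals allow is 0.00278. After Benjamini-Hochberg adjustment over the 72 relations 0 passed for Pearson's r and 0 for Spearman's rho; the lowest adjusted p was 0.2. At an unadjusted exact p under 0.05 there were 5 Pearson relations in CAST and 5 in WSB, and 1 Spearman relation in each strain. The sign was the same in both strains for 26 of the 36 pairs. In each strain 24 of the 36 relations were positive, and the pairs share genes. No baseline for the count of like signs was computed, and it was not tested.

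Dbp and Arntl ran in opposite directions in WSB, with a Pearson r of -0.93 (exact permutation p 0.0292, adjusted 0.289) and a Spearman rho of -0.83 (exact p 0.0583, adjusted 0.740). Without WSB_120 and WSB_135 the WSB r was -0.35, so the relation rests on those animals. In CAST r was -0.74 (exact p 0.0819, adjusted 0.492) and rho -0.43 (exact p 0.419, adjusted 0.911). Without CAST_142 and CAST_201 the CAST r was 0.25, and without CAST_142 alone it was near zero, at -0.089.

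Dbp and Clock also ran in opposite directions in both strains. In CAST r was -0.65 (exact permutation p 0.171, adjusted 0.525) and rho -0.60 (exact p 0.242, adjusted 0.870), and r was -0.81 without the 2 animals farthest from the median of Clock. In WSB r was -0.85 (exact p 0.0347, adjusted 0.289) and rho -0.77 (exact p 0.103, adjusted 0.740), and r was -0.84 without the 2 farthest animals. Without CAST_142 alone, however, the CAST r of this pair was -0.10. The activators themselves, Arntl and Clock, had an r of 0.46 in CAST (exact p 0.369, adjusted 0.685; rho 0.20, exact p 0.714, adjusted 0.934), which was -0.36 without CAST_142, and 0.79 in WSB (exact p 0.0278, adjusted 0.289; rho 0.77, exact p 0.103, adjusted 0.740).

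Among the repressors, the REV-ERB genes Nr1d1 and Nr1d2 followed each other in WSB, where the 6 animals had the same order for both (rho 1, exact permutation p 0.00278, the smallest possible, adjusted 0.2; r 0.88, exact p 0.00833, adjusted 0.289). Without WSB_135 and WSB_169 that r was 0.84. In CAST the sign was the opposite, with an r of -0.36 (exact p 0.458, adjusted 0.773) and a rho of -0.60 (exact p 0.242, adjusted 0.870). The difference between the strains was not tested. Clock and Cry1 followed each other in CAST, with an r of 0.91 (exact p 0.00417, adjusted 0.289), a rho of 0.94 (exact p 0.0167, adjusted 0.6) and an r of 0.71 without CAST_142 and CAST_201. In WSB that r was 0.59 (exact p 0.183, adjusted 0.528) and rho 0.43 (exact p 0.419, adjusted 0.911). In CAST, Clock also had an unadjusted exact p under 0.05 with Per1 (r 0.92, in WSB 0.057) and Nr1d2 (r 0.89, in WSB -0.059). Cry1 had the same with Per1 (r 0.82, in WSB 0.27) and Nr1d2 (r 0.83, in WSB -0.31). In WSB the remaining such pair was Per1 and Per2 (r 0.83, in CAST 0.37). Their adjusted exact permutation p-values were 0.289 to 0.35.

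**Figure D5:**
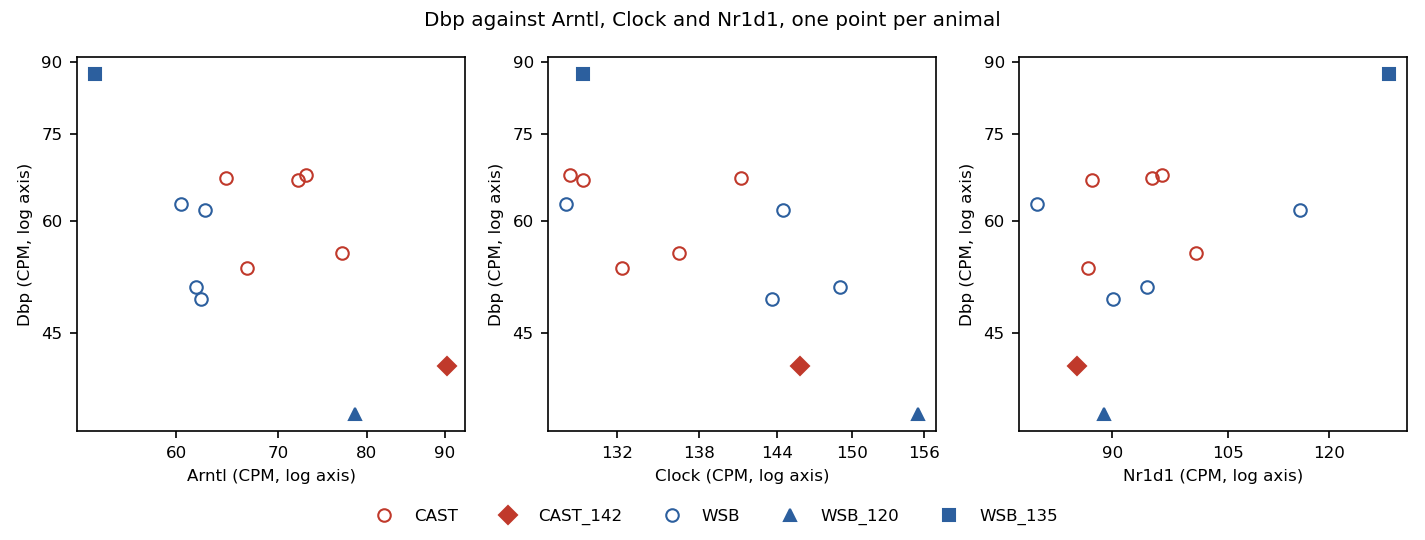
Dbp (vertical axes) against Arntl, Clock and Nr1d1 (horizontal axes), all in CPM on log axes, with 1 point per animal, CAST in red and WSB in blue. CAST_142 and WSB_120 lie at low Dbp with high Arntl and Clock, and WSB_135 at 87.3 CPM of Dbp with 53.1 CPM of Arntl.

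Genes whose pattern over the animals was most like that of Dbp were found by the Pearson r of log2 CPM, centred on each strain's mean, over the 12 animals and 11645 protein-coding genes; this is a description without a test. The highest were Tef (0.93), Agrn (0.90), Zswim3 (0.87), Tmem86a (0.86) and Gm10282 (0.85), and the lowest were Eed (-0.91), Ginm1 (-0.90) and Stambp (-0.89). Tef kept the first rank without CAST_142, at 0.93. Tef ranged from 326 to 365 CPM in CAST and from 336 to 402 CPM in WSB, so its range was much narrower than that of Dbp. Of the members, Nr1d1 stood at 0.62 and Arntl at -0.85. Nfil3, a repressor that binds D-box elements, stood at -0.86 and held rank 11634.

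For Arntl the highest values by the same measure belonged to Zfp235 (0.89), Kcmf1 (0.87), Eed (0.87), Ggt7 (0.85) and Myo19 (0.84). The lowest belonged to Zfp57 (-0.89), Fam204a (-0.87) and Mcee (-0.87). These lists were less steady: without CAST_142 the first rank went to Sphk2 (0.87), which overlaps Dbp on the opposite strand. Nfil3 stood at 0.76 with all animals and 0.62 without CAST_142.

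Other genes of the clock were taken from a list of 29, of which 27 were tested and 2, Ciart and Usp2, are listed at 0. Both overlap other genes along their whole length, as Per3 does, so nothing is said of their expression. Of the 27, 6 were higher and 4 lower in CAST, and 17 did not pass edgeR's test, against the 21.5% higher and 21.2% lower of all genes. Their median log2 fold change was 0.015 and the median of the absolute values 0.14.

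Of the genes higher in CAST, Timeless, named for a fly clock gene and active in replication forks in mammals, averaged 8.23 ± 1.13 CPM in CAST brains and 5.25 ± 0.651 CPM in WSB brains (log2 fold change 0.65, SE 0.11; edgeR adjusted p 2.40e-04). Sirt1, an NAD-dependent deacetylase, averaged 30.8 ± 1.95 CPM in CAST brains and 24.96 ± 1.52 CPM in WSB brains (log2 0.30; edgeR adjusted p 4.92e-04). Both held in every alternative setting. Btrc, which targets PER proteins for degradation, was higher by 0.18 on the log2 scale, and Fbxl21, an F-box protein that binds cryptochromes, by 0.50. The edgeR adjusted p of Btrc was 0.0221; the call was lost on lane 5 alone and without CAST_201, WSB_135 or WSB_147, with adjusted p-values up to 0.0638. That of Fbxl21 was 0.0319; the call was lost on lane 5 alone and without CAST_200, CAST_202, CAST_203, WSB_100, WSB_120 or WSB_169, with adjusted p-values up to 0.0729. The other higher genes were Hlf and Csnk1d, whose calls were lost in 10 and 13 of the 19 alternative settings.

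Of the genes lower in CAST, Arntl2, a paralog of Arntl, fell to 11.7 ± 2.38 CPM in CAST, against 17.03 ± 1.05 CPM in WSB (log2 fold change -0.54, SE 0.13; edgeR adjusted p 0.00392). Nono, an RNA-binding partner of PER proteins, fell by 0.15 on the log2 scale (edgeR adjusted p 0.00601). Bhlhe41, a repressor of E-box transcription also called DEC2, averaged 25.3 ± 1.95 CPM in CAST brains and 30.6 ± 3.88 CPM in WSB brains (log2 -0.27; edgeR adjusted p 0.0150). The calls of these 3 genes held in every alternative setting.

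Genes that respond to acute stimuli were counted because Per1 shares that response. Of 10 activity-induced genes, 2 were higher and 0 lower in CAST by edgeR's test, a share of higher genes near the 21.5% of all genes. The median log2 fold change of the 10 was 0.47, against 0.0046 over all genes tested. Npas4, a neuronal activity-dependent transcription factor, had the smallest p, at 32.5 ± 8.82 CPM in CAST brains and 17.6 ± 6.496 CPM in WSB brains (log2 fold change 0.89; edgeR adjusted p 0.0123). The other called gene, Nr4a1, lost its call in 10 of the 19 alternative settings. Of 7 glucocorticoid targets, 0 were higher and 2 lower, against 21.2% lower over all genes. Their median log2 fold change was -0.31. Zbtb16 had the smallest p, at 86.1 ± 13.4 CPM in CAST brains and 124 ± 38.2 CPM in WSB brains (log2 -0.52; edgeR adjusted p 0.0296), and its call was lost in 9 of the 19 alternative settings, with adjusted p-values up to 0.0854. The other call, Fkbp5, was lost in 11 of the 19. The part of these responses in the members' spread was not tested.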

How the data were processed

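RNA sequencing of 12 mouse brains, 6 CAST and 6 WSB, was analysed from the counts the authors deposited, raw whole numbers for each gene in 24 files, 1 for each lane of each animal. According to the submitters' processing notes the tools were TopHat2 2.1.1, HTSeq, cutadapt and DESeq2, with no roles. Genome build, annotation and strandedness are not given in sources used here. The 53465 genes of a file are followed by 5 counters of unassigned alignments, which were left out. Over the animals 62.9% to 68.0% of counted alignments fell in genes, 11.1% to 16.5% were ambiguous between genes and 15.6% to 17.5% were not unique. Reads of overlapping or antisense genes cannot be told apart, and alignment may differ between strains.

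Lanes were summed per animal, and symbols and coordinates were taken from GENCODE M21 (GRCm38). The strain test was run in edgeR 4.0.16 under R 4.3.3 (quasi-likelihood test, TMM scaling, default expression filter, Benjamini-Hochberg over 18425 genes). Log2 CPM used a prior count of 2. The p-values measure the spread between the animals as numbered in the labels. DESeq2 1.42.0, other scalings, single lanes and leaving out animals were alternatives. The scripts were checked on simulated data. Promoter windows come from RefSeq (GRCm38.p6).

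The members and all gene lists were chosen with earlier results of these data known. Text names all 10 members, up to 4 called genes with the smallest p in each direction among other clock genes, the gene with the smallest p in each stimulus list, and for Dbp and Arntl the 5 most and 3 least alike genes with a mean log2 CPM of at least 2; Hlf and Csnk1d, the animals singled out and the marker genes given beside them were chosen after their values were seen. Of the genes this rule names, 1 is not reported here.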

Additional observations from a re-analysis of the deposited data

Results flagged for a closer look

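In 5 of 46 groups of 6 animals searched, an animal lay far from the others of its strain, and chance gives about 1 such group in 20. Among the clock members there was 1 such group of 18, Cry2 in WSB_138, which had 76.3 CPM against 81.0 to 83.4 CPM in the other WSB animals. This is the WSB animal nearest to the CAST range, and Cry2 had an edgeR adjusted p of 0.00131 without it. Arntl2 in CAST_142 had 6.96 CPM against 11.9 to 13.1 CPM in the other CAST animals. Btrc in CAST_142 had 102 CPM against 117 to 125 CPM in the other CAST animals. Sirt1 in WSB_100 had 27.8 CPM against 23.2 to 24.9 CPM in the other WSB animals. Zbtb16 in CAST_201 had 112 CPM against 75.7 to 88.9 CPM in the other CAST animals.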

How the results depend on the processing

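Cry2 was the 1 member called lower in CAST in every setting run. No member was called higher except Arntl when CAST_201 or WSB_120 was left out, so that count was 0 to 1 over the sets that leave out 1 animal. Other clock genes called higher numbered 6, but 3 on lane 5 alone and 3 to 6 when 1 animal was left out; those called lower numbered 4 to 6. Without 1 animal 7313 to 8726 genes were called, against 7866 in all and 9537 by DESeq2. Changes of sign concerned values that did not pass a test. The log2 fold change of Per1 was -0.019 without CAST_142 and WSB_100. That of Per2 was 0.0040 on lane 5 alone and -0.11 to 0.049 without 1 animal, and that of Dbp was -0.0013 on lane 6 alone and -0.093 to 0.16 without 1 animal. The r of Arntl and Clock in CAST was -0.36 to 0.89 without 1 animal. Without the 2 animals farthest from the median, the r of Arntl and Dbp in CAST was 0.25 and that of Nr1d1 and Dbp in WSB was -0.50. Over all 6 animals of the strain these were -0.74 and 0.68 (exact permutation p 0.0819 and 0.158, adjusted 0.492 and 0.525). The causes were not tested. No paired analysis was possible because the strains share no animal or replicate number. Each counted member had at least 700 reads in every animal; the number of animals and the unknown hour of collection limit what the levels and their spread can show.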

Other observations

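The other PAR bZIP factors did not share one pattern over the animals. On the scale of log2 CPM centred on the strain mean, Tef had an r of 0.93 with Dbp over the 12 animals, whereas Hlf, also a PAR bZIP factor, had an r of 0.043, and Nfil3, which binds the same element as a repressor, had an r of -0.86. Nfil3 was highest at 19.4 CPM in CAST_142 and at 14.9 CPM in WSB_120, the animals with the lowest Dbp, and its strain means were 13.3 ± 3.20 CPM in CAST brains and 10.9 ± 2.36 CPM in WSB brains (SD, n = 6 each). These values are descriptions without a test.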
